A study of Mus musculus with 19 samples.

Results

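Abdominal aortas of AngII-infused mice carried RNA of brown fat in widely different amounts. The 6 libraries with the highest level of Ucp1, called rich, were set against the 6 with the lowest, called poor, out of 19 libraries in all, and 7 libraries lay between them. The libraries were chosen by their level of Ucp1 alone, in CPM (the unstranded counts of a gene scaled to a total of 1e+06 counts in genes in each library). In the same 12 libraries all other genes were fitted too, but since they share the libraries that Ucp1 chose, their values and the counts of genes past the threshold of the fit (an adjusted p of 0.05 by edgeR) are a description, and no p-value is given for a gene. The relation of other genes to Ucp1 was tested in the 7 middle libraries, which the same ranking left outside both sets. The irradiation groups were compared over all 19.

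All mice were male Apoe-/- mice on a C57BL/6J background, and all received AngII from a subcutaneous osmotic pump, which induces abdominal aortic aneurysm in this strain. D-3 IR mice (n = 7) were irradiated with X-rays 3 days before AngII, D+1 IR mice (n = 7) 1 day after its start, and control mice (n = 5) were not irradiated. Each library is listed as the aorta of 1 mouse. A group without AngII or with functional Apoe was not analysed here, so both are shared by every library. AngII was given for different times in the study, and the labels do not say after which of them these aortas were taken.

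Brown adipocytes burn fatty acids to make heat. Ucp1, a carrier of their inner mitochondrial membrane, lets protons return to the matrix without making ATP, and noradrenaline from sympathetic nerves switches the process on through beta-adrenergic receptors, cyclic AMP and lipolysis. In rodents much of the fat around the thoracic aorta is of this brown type, and the fat around the abdominal aorta is closer to white fat. The sequences below are shown because Ucp1 (chromosome 8 of GRCm38, 83290352 to 83298452, plus strand) chose the libraries and the other members of the brown adipocyte list, the fatty acid transporter and acyl-CoA synthetase Slc27a2, the secreted growth factor Nrg4 and the thyroid hormone deiodinase Dio2, hold a motif close to their start. They are promoters from RefSeq (GRCm38.p6), 250 bases before to 50 after the start, with the motif in capitals.

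Ucp1 (chr8:83290098-83290397, plus strand): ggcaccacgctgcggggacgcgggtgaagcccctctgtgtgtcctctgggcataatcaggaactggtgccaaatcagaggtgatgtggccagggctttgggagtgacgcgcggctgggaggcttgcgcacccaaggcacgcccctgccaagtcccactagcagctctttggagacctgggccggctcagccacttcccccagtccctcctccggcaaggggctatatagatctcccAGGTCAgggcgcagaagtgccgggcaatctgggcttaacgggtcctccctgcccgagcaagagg
Slc27a2 (chr2:126552774-126553073, plus strand): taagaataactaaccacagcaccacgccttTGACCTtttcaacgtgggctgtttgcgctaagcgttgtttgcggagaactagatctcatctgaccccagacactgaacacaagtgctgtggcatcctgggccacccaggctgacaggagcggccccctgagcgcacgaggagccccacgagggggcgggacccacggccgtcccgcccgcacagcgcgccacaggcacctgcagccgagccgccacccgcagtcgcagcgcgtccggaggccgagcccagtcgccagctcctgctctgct
Nrg4 (chr9:55283576-55283875, minus strand): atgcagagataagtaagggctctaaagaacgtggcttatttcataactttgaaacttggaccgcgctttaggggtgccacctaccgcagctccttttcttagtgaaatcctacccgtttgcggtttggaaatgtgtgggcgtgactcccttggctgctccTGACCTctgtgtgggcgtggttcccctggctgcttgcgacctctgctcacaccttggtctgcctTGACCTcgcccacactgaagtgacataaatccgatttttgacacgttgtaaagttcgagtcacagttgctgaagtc
Dio2 (chr12:90738989-90739288, minus strand): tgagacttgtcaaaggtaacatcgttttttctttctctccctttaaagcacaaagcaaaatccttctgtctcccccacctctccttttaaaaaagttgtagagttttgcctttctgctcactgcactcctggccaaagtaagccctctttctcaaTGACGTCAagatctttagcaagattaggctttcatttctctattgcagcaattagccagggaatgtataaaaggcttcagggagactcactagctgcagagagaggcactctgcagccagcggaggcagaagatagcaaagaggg

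The letters AGGTCA, a half-site of nuclear receptors such as PPAR, retinoid, thyroid hormone and estrogen-related receptors, began at position -14 from the start in Ucp1. On the opposite strand, where they read TGACCT, they lay at -220 in Slc27a2 and at -90 and -26 in Nrg4. TGACGTCA, the full cyclic AMP response element, which reads the same on both strands, began at -95 in Dio2. Of the 35 genes of the brown adipocyte list with Ucp1, 27 matched a RefSeq promoter by symbol, with 32 promoters. AGGTCA on either strand was in 8 of these 32 promoters (25%), against 16.3% of 32851 promoters of the same length. TGACGTCA was in 1 (3.12%), against 1.79%. The DR1 element, which PPAR binds and which repeats AGGTCA after 1 base, and TCAAGGTCA, a site of estrogen-related receptors, both contain AGGTCA and were in 0 of the 32, against 0.0396% and 0.423% of all promoters. A match of letters is a description of the window and not a bound site.

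The rich set held 4 D+1 IR, 1 D-3 IR and 1 control library, and the poor set 1 D+1 IR, 3 D-3 IR and 2 control libraries. In the rich set, Ucp1 was at 3906 CPM in D+1 IR 19, 3411 in D+1 IR 3, 3087 in D+1 IR 1, 3035 in D+1 IR 2, 2267 in control 4 and 2172 in D-3 IR 12. In the poor set it was at 557 CPM in D-3 IR 16, 418 in D-3 IR 13, 351 in D+1 IR 17, 343 in control 8, 158 in D-3 IR 10 and, lowest of all, 98.1 in control 6. The middle libraries were D-3 IR 15 at 2006 CPM, control 5 at 1921, D-3 IR 14 at 1605, D+1 IR 18 at 1300, D+1 IR 20 at 935, D-3 IR 11 at 751 and control 9 at 619. The highest library was 39.8 times the lowest, and no library was without Ucp1. At the edges of the sets the steps were small, with D-3 IR 12 just inside the rich set at 2172 CPM and D-3 IR 15 just outside it at 2006, and D-3 IR 16 just inside the poor set at 557 and control 9 just outside it at 619.

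**Figure D1:**
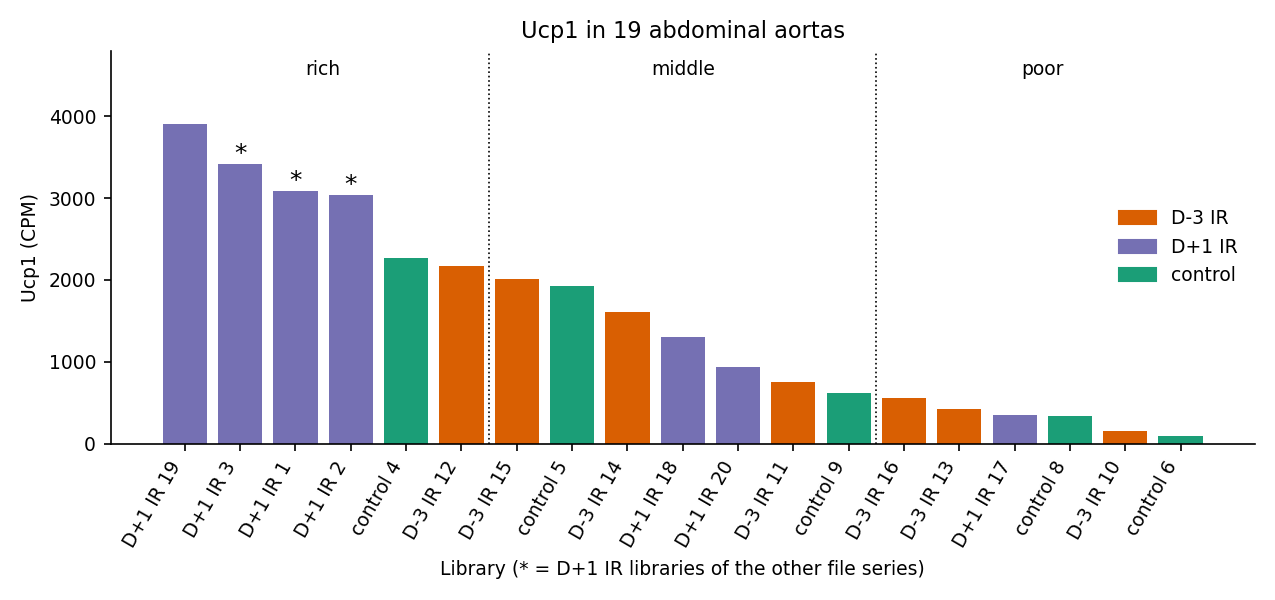
Bars give Ucp1 in CPM (vertical axis, linear from 0) for each of the 19 libraries in order of level, coloured by irradiation group, with dotted lines at the edges of the 6 rich and 6 poor libraries. The levels step down without a gap at either edge, with D+1 IR 19 highest at 3906 CPM and control 6 lowest at 98.1, and the starred D+1 IR 1, 2 and 3 all stand in the rich set.

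Depth was 25839001 to 97083681 counts in genes in the rich set and 27407579 to 79066549 in the poor set. The mitochondrial genome took 11.2% to 22.9% of the counts in rich libraries and 4.50% to 14.4% in poor libraries, ranges that overlap. D+1 IR 1, 2 and 3, all in the rich set, carry another number in their file names than the other 16 libraries. Whether this number marks a sequencing run is not given in the sources used here. List counts below are also given without these libraries, which leaves 3 rich against 6 poor libraries and thus less power. Skeletal muscle transcripts stood out in D+1 IR 3 of the rich set, D-3 IR 10 of the poor set and D-3 IR 15 and control 5 of the middle. Acta1, skeletal muscle actin, was at 246, 1854, 948 and 217 CPM in these 4 libraries and at 1.45 to 51.0 CPM in the other 15. Transcripts of sympathetic neurons were high in some libraries of each set, with Th, the enzyme that starts catecholamine synthesis, at 0 to 383 CPM in rich and 0.0941 to 875 CPM in poor libraries. Acta2, the actin of smooth muscle, was at 782 CPM or more in every library. Eln, for elastin, was at 498 to 19341 CPM in rich libraries, against 7700 to 45770 CPM in poor libraries. How much of each library came from the aortic wall was not tested.

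The markers named with the rule did not all follow Ucp1 alike. Elovl3, an elongase of long-chain fatty acids induced in brown fat by cold (chromosome 19, 46131897 to 46135694), was at 108, 179 and 239 CPM in the lowest, median and highest rich library, against 2.05, 9.76 and 38.9 CPM in poor libraries. The sets did not overlap, with a fitted log2 fold change of 3.81 (standard error 0.59). Cyp2b10, a cytochrome P450, was at 0.626, 4.36 and 24.1 CPM in rich libraries, against 0, 0.293 and 1.11 CPM in poor libraries. Its sets overlapped, its highest values were in D+1 IR 3 and D+1 IR 2, and its log2 fold change of 4.20 (standard error 1.09) became 2.12 (standard error 1.05) without D+1 IR 1, 2 and 3 and 6.30 for the 4 highest against the 4 lowest libraries. In the middle, D+1 IR 18 had 18.2 CPM of Cyp2b10 and the other 6 libraries 0.883 to 1.69.

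Cidea, a lipid droplet protein of brown adipocytes (chromosome 18, 67343604 to 67367785), was at 654, 1333 and 1592 CPM in rich libraries, against 35.3, 204 and 303 CPM in poor libraries. Cox8b and Cox7a1, isoforms of cytochrome c oxidase subunits found in brown fat and muscle, were placed in the same order. Cox8b was at 502, 773 and 983 CPM in rich libraries, against 20.95, 126 and 189.6 CPM in poor libraries. Cox7a1 was at 176, 295 and 422 CPM in rich libraries, against 10.4, 44.1 and 51.3 CPM in poor libraries. Every rich library was above every poor library for these 3 genes, and the log2 fold changes were 2.88 (standard error 0.47), 2.74 (0.42) and 3.03 (0.37). Kcnk3, a potassium channel of brown adipocytes, likewise did not overlap, at 280.1, 455 and 507 CPM in rich libraries, against 34.5, 103 and 119 CPM in poor libraries.

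Dio2, which makes active thyroid hormone inside the cell, differed less than these genes. It was at 113, 167 and 245 CPM in rich libraries, against 37.7, 88.4 and 143 CPM in poor libraries, and the sets overlapped. Ppargc1a, a coactivator that drives mitochondrial biogenesis, was at 18.5, 32.5 and 104 CPM in rich libraries, against 2.995, 13.7 and 29.1 CPM in poor libraries. These also overlapped, and D+1 IR 19 stood above the other rich libraries. Prdm16, a regulator of brown adipocyte identity, did not go with Ucp1, at 22.8, 41.9 and 48.9 CPM in rich libraries, against 38.9, 51.6 and 63.4 CPM in poor libraries (log2 fold change -0.29, standard error 0.20). Cpt1b, the muscle and brown fat form of carnitine palmitoyltransferase, was at 0.563 to 1.56 CPM in rich libraries, against 0.04705 to 0.547 CPM in poor libraries. Its gene model shares its exons with the read-through model Gm44502 on the same strand, and reads in exons that 2 genes share are given to neither by this kind of counting.

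**Figure D2:**
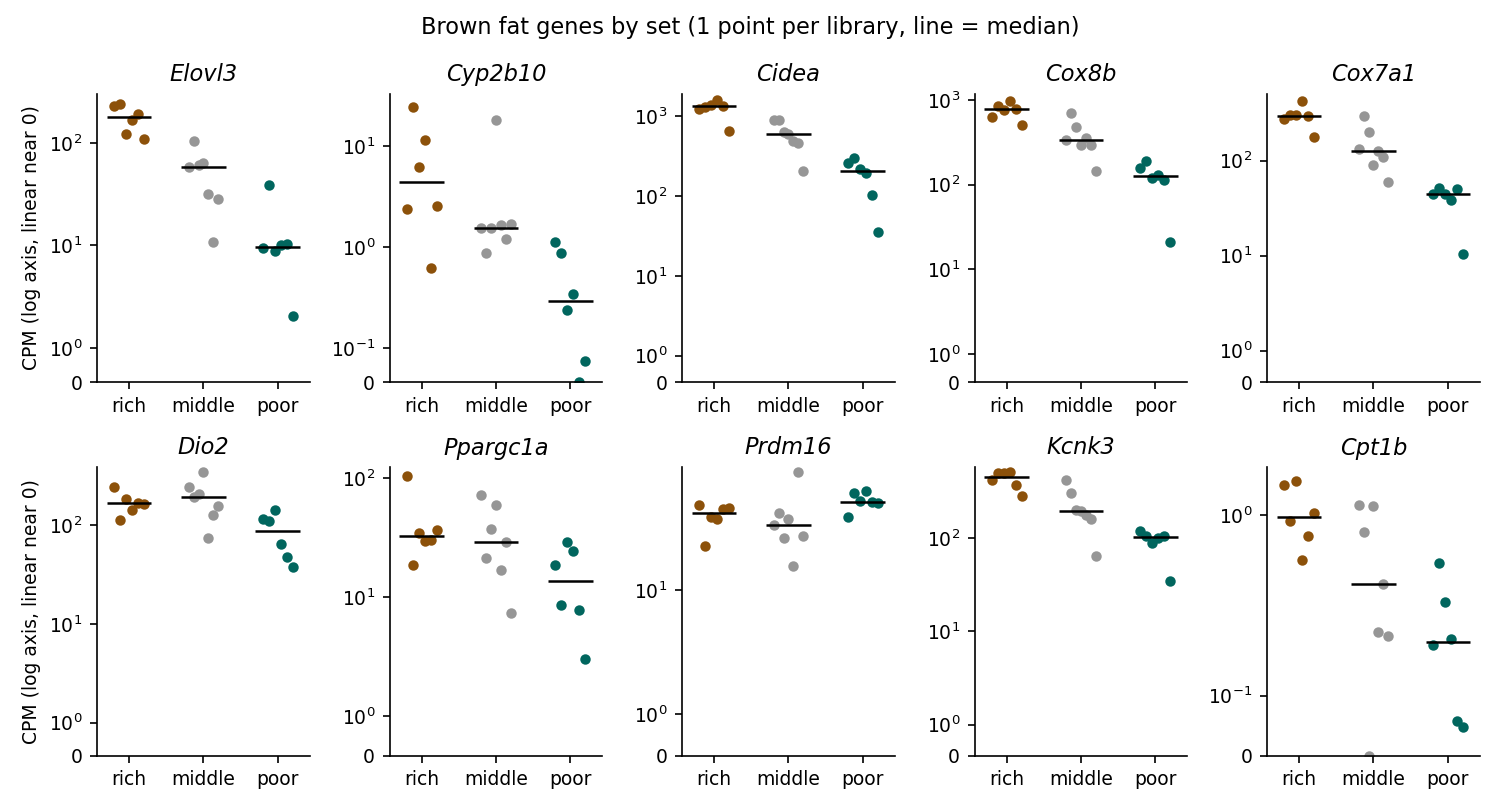
Each panel gives 1 gene in CPM (log axis that is linear near 0) in the 6 rich, 7 middle and 6 poor libraries, 1 point a library, with the median as a line. Elovl3, Cidea, Cox8b, Cox7a1 and Kcnk3 separate the rich from the poor libraries, Cyp2b10, Dio2 and Ppargc1a overlap, and Prdm16 has a median of 41.9 CPM in rich and 51.6 in poor libraries.

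Over all genes, 2190 of 16433 tested (13.3%) were higher in the rich set at an adjusted p under 0.05 by edgeR's quasi-likelihood test and 1934 (11.8%) were lower, 4124 (25.1%) in all. Since Ucp1 chose the libraries, these counts serve only as the background for those below. Scaled by library size alone, 1886 were higher and 2636 lower, so that 41.7% of the calls were higher in place of 53.1%. All 6 rich libraries lay above all 6 poor libraries for 1382 genes (8.41%) and below them for 872 (5.31%), and 37.6% of the genes had a log2 fold change above 0. Leaving out D+1 IR 1, 2 and 3 gave 877 higher and 59 lower genes of 16934 tested, the background for list counts without these libraries. With the irradiation group as a covariate, 908 were higher and 233 lower of 18664 tested. The lower calls were 1121 without D+1 IR 1, 1160 without D+1 IR 2, 885 without D-3 IR 13 and 1113 without control 6.

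Of the brown adipocyte list without Ucp1, 31 of 34 genes were measured well enough to be tested, 30 had a log2 fold change above 0, 29 were past the threshold as higher, 0 were lower, and 24 did not overlap between the sets. Zic1, Bmp8b and Fgf21 did not pass the filter on low counts, and the tested genes that were not past the threshold were Prdm16 and Lhx8. The median log2 fold change was 2.45, against -0.17 over all genes tested. Slc27a2 was at 36.3 to 148 CPM in rich libraries, against 0.690 to 23.2 CPM in poor libraries. Plin5, which holds lipid droplets to mitochondria, was at 54.6 to 166 CPM in rich libraries, against 2.68 to 22.4 CPM in poor libraries. Otop1, a proton channel expressed in brown fat, was at 125 to 246 CPM in rich libraries, against 3.84 to 54.5 CPM in poor libraries, and Pank1, which makes coenzyme A, was at 118 to 293 against 13.1 to 48.9 CPM. None of these 4 overlapped, and their log2 fold changes were 3.24, 3.09, 2.84 and 2.82. When D+1 IR 1, 2 and 3 were left out, the list had 17 genes past the threshold as higher and 0 as lower, with a median of 2.28, and 17 with the irradiation group as a covariate.

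Transcripts of beta-adrenergic and thyroid signalling genes did not all go the same way. Which cells of the aorta they came from was not tested. Adrb3, the beta3-adrenergic receptor of adipocytes, was at 114 to 213 CPM in rich libraries, against 3.42 to 60.2 CPM in poor libraries, and Adrb1 was at 10.1 to 37.4 CPM in rich libraries, against 0.282 to 5.704 CPM in poor libraries. Neither overlapped. Of 19 genes of beta-adrenergic and thyroid signalling, 11 were past the threshold as higher and 4 as lower. Prkar2b, the regulatory subunit of protein kinase A that is abundant in fat, was at 402 to 906 CPM in rich libraries, against 15.01 to 203 CPM in poor libraries, while Prkar1a, a regulatory subunit found in most cells, was at 303 to 429 CPM in rich libraries, against 430.5 to 719.9 CPM in poor libraries. These subunits of the same kinase thus differed in opposite directions, though Prkar1a only just separated the sets, at 429 against 430.5 CPM. With the irradiation group as a covariate, neither Prkar2b nor Prkar1a was past the threshold. Adcy5 and Adcy3, which make cyclic AMP, also differed in direction, with log2 fold changes of -1.41 (standard error 0.41) and 1.47 (0.28). In this list only Pde4d, which degrades cyclic AMP, was past the threshold without D+1 IR 1, 2 and 3. The log2 fold changes there were 1.93 for Adrb3, 2.36 for Adrb1, 2.19 for Prkar2b and 1.35 for Adcy3, against 2.12, 3.02, 2.42 and 1.47 with all 12 libraries, and -0.29 for Prkar1a and -0.92 for Adcy5, against -0.44 and -1.41.

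Among 24 tested regulators of brown fat transcription, 12 were past the threshold as higher and 0 as lower, with a median log2 fold change of 1.08. They included the nuclear receptors Pparg, at 105 to 192 CPM in rich libraries, against 8.66 to 52.03 CPM in poor libraries, and Esrra, at 108 to 188 against 35.3 to 58.7 CPM. Ebf2, a factor that marks brown preadipocytes, was at 21.1 to 43.7 CPM in rich libraries, against 2.68 to 15.1 CPM in poor libraries. None of these 3 overlapped. Among the 12 genes not past the threshold were Nrf1 (log2 fold change -0.22, standard error 0.12), the retinoid receptor gene Rxra (0.22, 0.13) and the thyroid hormone receptor gene Thra (-0.51, 0.24). The count past the threshold was 4 without D+1 IR 1, 2 and 3, with log2 fold changes there of 1.92 for Pparg and 1.45 for Esrra, both past it, and of 1.38 for Ebf2, which was not.

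Of 13 tested genes for factors secreted by brown fat, 7 were past the threshold as higher and 1, Fgf13, as lower. Nrg4 was at 33.7 to 72.5 CPM in rich libraries, against 1.35 to 18.7 CPM in poor libraries. Vegfa, which drives growth of vessels, was at 121 to 168 CPM in rich libraries, against 29.1 to 72.9 CPM in poor libraries, and these did not overlap. Without D+1 IR 1, 2 and 3 the counts were 2 and 0. Vegfa was past the threshold there, at a log2 fold change of 1.49 against 1.48 with all libraries, and Nrg4 (2.04 against 2.32) and Fgf13 (-0.96 against -1.46) were not. Of 11 genes of heat production without Ucp1, by cycling of creatine or calcium, 0 were past the threshold as higher and 4 as lower. Over all genes tested the shares were 13.3% and 11.8%. The lowest log2 fold changes of the list, -3.03 for Atp2a1 and -2.44 for Ryr1, were not past the threshold. In poor libraries these 2 genes had medians of 4.77 and 2.00 CPM but highest levels of 975 and 111 CPM. The part of skeletal muscle in this list was not tested. Ckb, the creatine kinase of the creatine cycle in fat, was at 79.4 to 213 CPM in rich libraries, against 147 to 429 CPM in poor libraries, with a log2 fold change of -0.94 (standard error 0.26). Smooth muscle also expresses Ckb. When D+1 IR 1, 2 and 3 were left out, 1 gene of the list was lower, Gamt, which makes creatine, and Ckb was not past the threshold, at -0.68 (standard error 0.31).

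The fuel pathways of brown fat went with Ucp1 almost as whole lists. Of 29 genes of fatty acid oxidation, 28 were past the threshold as higher, and all 6 rich libraries lay above all 6 poor libraries for the same number, with a median log2 fold change of 2.09. Hadhb, a subunit of the trifunctional protein, was at 579.7 to 1241 CPM in rich libraries, against 62.1 to 295 CPM in poor libraries, and Slc25a20, the carnitine carrier, was at 271 to 496 against 35.2 to 102 CPM. The exception was Cpt1a, the liver form of the enzyme that Cpt1b replaces in brown fat, at 50.3 to 78.6 CPM in rich libraries, against 71.3 to 165 CPM in poor libraries (log2 fold change -0.49, standard error 0.17). Of the 29, 23 were past the threshold as higher and 0 as lower without D+1 IR 1, 2 and 3.

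Of 30 genes of the TCA cycle and pyruvate dehydrogenase, 29 were past the threshold as higher with no overlap, with a median of 1.92, and 28 were past it without D+1 IR 1, 2 and 3. The gene outside was Pdp1, a phosphatase of pyruvate dehydrogenase (-0.60, standard error 0.22). Pdk4, a kinase of the same enzyme, was at 539.5 to 1361 CPM in rich libraries, against 51.9 to 308 CPM in poor libraries, and the citrate synthase gene Cs was at 772 to 1344 against 191 to 440.4 CPM.

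Of 79 nuclear genes of the respiratory chain and ATP synthase, 73 were past the threshold as higher and 1 as lower, with a median of 1.51, and 69 and 1 without D+1 IR 1, 2 and 3. The lower gene was Atp5g1, 1 of 3 genes for subunit c of ATP synthase, the ring through which protons pass. It was at 24.9 to 61.03 CPM in rich libraries, against 57.3 to 138 CPM in poor libraries (log2 fold change -1.11, standard error 0.21). The other 2 genes of this subunit were Atp5g2 at 54.6 to 83.98 CPM in rich libraries, against 40.005 to 66.7 CPM in poor libraries, and Atp5g3 at 228 to 351 against 175 to 298 CPM. All 3 had ranges that overlapped between the sets. Of the genes of the mitochondrial genome 1 of 8 tested, mt-Nd2, was past the threshold as higher, near the 13.3% of all genes tested. The median was 0.95, and 0 were past the threshold without D+1 IR 1, 2 and 3. For mt-Co1 the range was 34740.0 to 66239.5 CPM in rich libraries, against 13758 to 42377 CPM in poor libraries.

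Genes of lipid storage and synthesis went the same way, in lists that share some members with each other and with those above. Of 27 general adipocyte genes, 23 were past the threshold as higher, with a median of 2.03. Adipoq, the hormone adiponectin, was at 532 to 898 CPM in rich libraries, against 19.6 to 349.6 CPM in poor libraries. Gpd1, which makes glycerol 3-phosphate for triglycerides, was at 3186 to 6074 CPM in rich libraries, against 138 to 1262 CPM in poor libraries. Neither overlapped. Without D+1 IR 1, 2 and 3, however, 4 of the 27 were past the threshold, at a median of 1.74.

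Of 24 genes of fatty acid synthesis, 21 were past the threshold as higher and 2 as lower, with 8 and 0 without D+1 IR 1, 2 and 3. Fasn, fatty acid synthase, was at 9283 to 17862 CPM in rich libraries, against 275 to 5822 CPM in poor libraries. The 2 lower genes were the desaturases of polyunsaturated fatty acids, Fads1 at 38.3 to 103 CPM in rich libraries, against 91.2 to 192 CPM in poor libraries, and Fads2 at 23.03 to 79.04 against 80.1 to 157 CPM. Of 14 genes of lipid droplets and lipolysis 12 were past the threshold as higher, and 5 without D+1 IR 1, 2 and 3, at medians of 2.03 and 1.75. Of 18 peroxisome genes 16 were, and 11 without these libraries, at medians of 1.39 and 1.25.

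In glucose handling the transporters parted. Slc2a4, the insulin-responsive transporter of fat and muscle, was at 250.04 to 436 CPM in rich libraries, against 33.97 to 133 CPM in poor libraries, and Slc2a1, the transporter of most cells, was at 15.03 to 29.7 CPM in rich libraries, against 36.2 to 73.1 CPM in poor libraries. Neither overlapped, their log2 fold changes were 2.14 (standard error 0.30) and -1.15 (0.18), and both stayed past the threshold without D+1 IR 1, 2 and 3. Over the list of glucose and glycerol handling 16 of 19 were higher and Slc2a1 alone was lower.

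White adipocyte genes had no common direction between the sets, with a median log2 fold change of 0.17. Of 14, 1 was past the threshold as higher (Itih5, a secreted protein of the extracellular matrix), against 13.3% of all genes tested. The members were split, with 7 of 14 above 0. They ran from -2.48 for Wt1, which averaged 0.188 CPM in rich and 0.975 CPM in poor libraries, to 1.76 for Slc7a10 (standard error 0.64). Lep had 1.47 (standard error 0.78). The leptin gene Lep was at 1.51 to 15.8 CPM in rich libraries, against 0.235 to 11.9 CPM in poor libraries, and Retn, for resistin, was at 118 to 403 against 6.16 to 159.5 CPM. Both overlapped. Of 11 beige adipocyte genes, 2 were past the threshold as higher, Slc36a2 and Car4, and 2 as lower, Tmem26 and Klhl13. These counts were near the shares of all genes tested, 13.3% higher and 11.8% lower. Car4 is also counted below in the list of fat capillary endothelium. Slc36a2, an amino acid transporter, was at 231 to 426 CPM in rich libraries, against 7.32 to 105 CPM in poor libraries, and Tmem26 was at 0.442 to 2.98 against 2.26 to 6.46 CPM. No gene of the white or beige lists was past the threshold without D+1 IR 1, 2 and 3, where the log2 fold changes were 1.11 for Itih5, 1.98 for Slc36a2, 1.19 for Car4, -1.41 for Tmem26 and -0.66 for Klhl13, against 1.30, 2.28, 1.76, -1.46 and -1.06 with them.

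Within a library, the ratio of brown to general adipocyte transcripts also differed in its middle value between the sets. Cidea over Adipoq, in CPM, was 1.195, 1.85 and 2.53 in rich libraries, against 0.590, 0.942 and 1.80 in poor libraries. Elovl3 over Adipoq was 0.153, 0.236 and 0.409 in rich libraries, against 0.0268, 0.0563 and 0.146 in poor libraries, with no overlap. Kcnk3 over Adipoq overlapped, at 0.512, 0.621 and 0.738 in rich libraries, against 0.327, 0.461 and 1.76 in poor libraries. Its highest poor library was above every rich library. Lep over Adipoq also overlapped, at 0.00268, 0.0108 and 0.0277 in rich libraries, against 0.00746, 0.0103 and 0.0448 in poor libraries. Plin1 over Adipoq, a ratio of general adipocyte genes, was 1.10, 1.36 and 1.65 in rich libraries, against 0.749, 1.03 and 1.43 in poor libraries, which overlapped. In whole aortas, fewer cells of a type and less RNA per cell cannot be told apart.

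**Figure D3:**
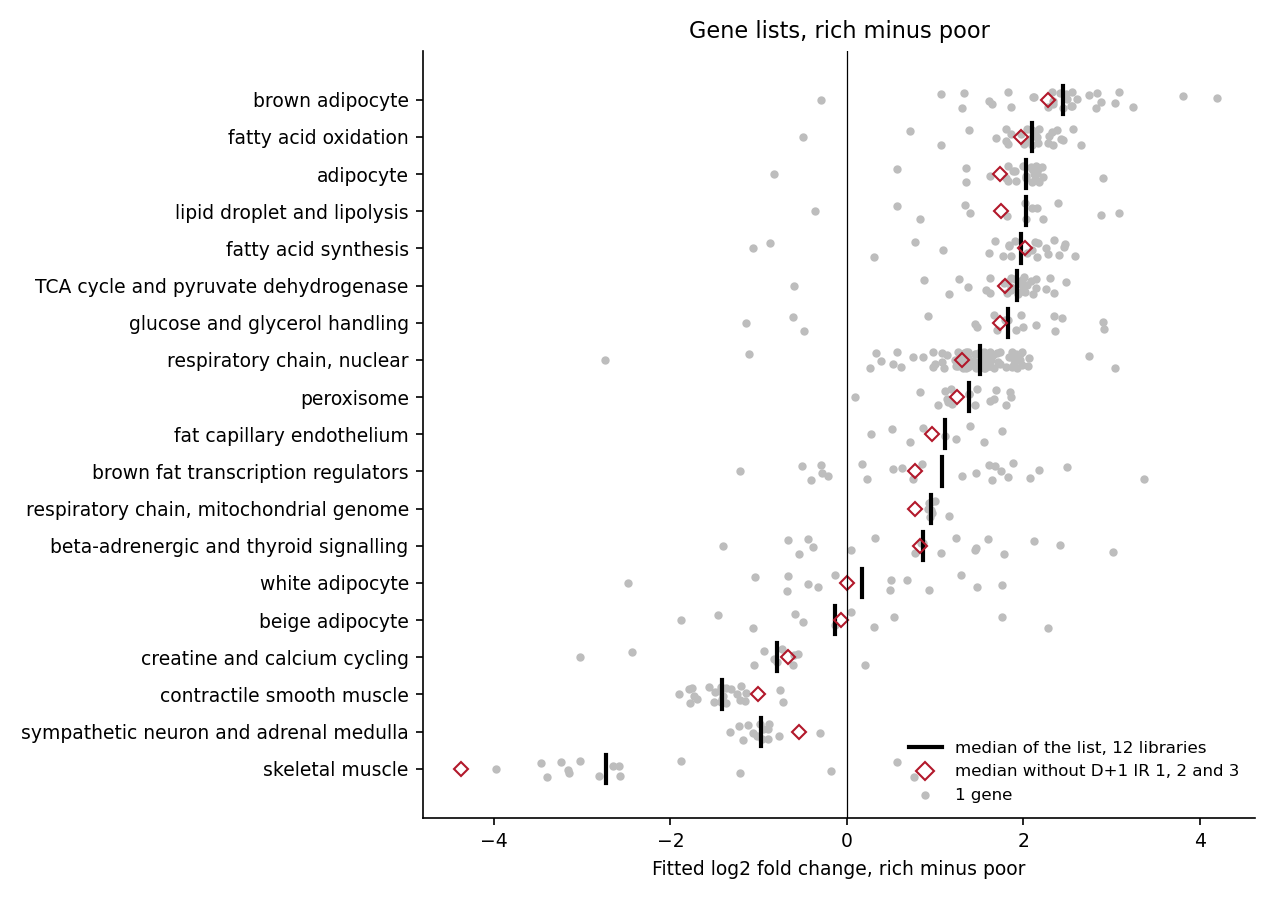
Each grey point is 1 gene of a list (Ucp1 left out) at its fitted log2 fold change, rich minus poor, the black bar is the median of the list over the 12 libraries, and the open diamond is the median without D+1 IR 1, 2 and 3. The brown adipocyte list has a median of 2.45 (2.28 without these libraries), white adipocyte genes 0.17 (0.01) and contractile smooth muscle genes -1.42 (-1.005).

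The 15 genes with the largest log2 fold change, among those past the threshold that did not overlap and averaged at least 1 CPM, were 5 protein-coding genes and 10 genes of other biotypes, noncoding RNAs or gene models still to be tested, by GENCODE M21. The coding genes besides Elovl3 and Slc27a2 were Dnajc22, a DnaJ protein, at 1.82 to 5.22 CPM in rich libraries, against 0.0941 to 1.09 CPM in poor libraries, Slc25a48, a mitochondrial carrier, at 9.23 to 28.8 against 0.0627 to 2.66 CPM, and Adcy10, the soluble adenylyl cyclase, at 4.56 to 11.2 against 0.0627 to 2.19 CPM. Gm15241 (chromosome X, 160488549 to 160499870) led, at 2.004 to 6.47 CPM in rich libraries, against 0.0571 to 0.2403 CPM in poor libraries, with a log2 fold change of 4.70 (standard error 0.47). It lies antisense to the receptor gene Adgrg2, which had a log2 fold change of 0.58. Gm35986, at 1.66 to 4.68 CPM in rich libraries, against 0.0314 to 0.898 CPM in poor libraries, lies antisense to the elongase gene Elovl6, which averaged 773 CPM in rich and 161 CPM in poor libraries. Gm47595 and Gm47593 lie antisense to Lrrc20, with log2 fold changes of 3.46 and 3.27, against 0.34 for Lrrc20. The other 6, AC153155.2, Gm32468, 2810030D12Rik, 9130214F15Rik, 2310069B03Rik and Plet1os, had log2 fold changes of 3.31 to 3.99. Of these 6, 2310069B03Rik reached the highest level, at 8.11 to 36.6 CPM in rich libraries, against 0.235 to 4.38 CPM in poor libraries. Counting did not use strand, and reads in exons that an antisense gene shares with its partner are given to neither. Elsewhere a read goes to the gene whose exon it lies in, whichever strand it came from.

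Contractile genes of smooth muscle were lower in the rich set, with 19 of 24 past the threshold as lower, 0 as higher, 13 without overlap, and a median of -1.42. Acta2 was at 782, 3161 and 6359 CPM in rich libraries, against 8610.0, 11840.0 and 17034 CPM in poor libraries. Myh11, smooth muscle myosin, was at 297 to 2035 CPM in rich libraries, against 2597 to 4839 CPM in poor libraries. Without D+1 IR 1, 2 and 3, 0 of the 24 were past the threshold, with a median of -1.005. In that fit 59 of 16934 genes tested were lower. With the irradiation group as a covariate 1 of the 24 was past the threshold, where 233 of 18664 genes tested were lower. The count was 9 without control 6, 10 without D-3 IR 13, 11 without D+1 IR 1, 11 without control 4 and 12 without D-3 IR 16. For Acta2 the log2 fold change was -1.16 (standard error 0.44) without D+1 IR 1, 2 and 3, against -1.70 (0.50) with them.

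**Figure D4:**
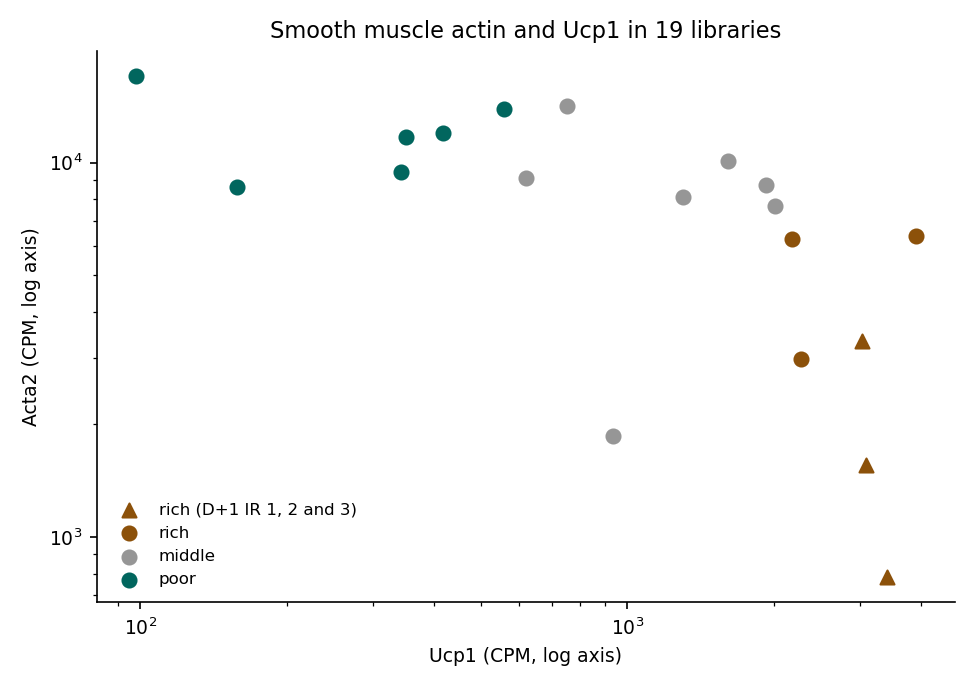
Each point is 1 of the 19 libraries, with Ucp1 (horizontal) and Acta2 (vertical) in CPM on log axes, coloured by set, and triangles mark D+1 IR 1, 2 and 3. The 6 rich libraries lie between 782 and 6359 CPM of Acta2, all below the 6 poor libraries, which lie between 8610 and 17034.

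The 10 genes with the lowest log2 fold change under the same conditions were led by Slc24a4, a sodium, potassium and calcium exchanger, at 0 to 0.661 CPM in rich libraries, against 0.835 to 4.05 CPM in poor libraries. Dsp, desmoplakin, was at 4.88 to 30.7 CPM in rich libraries, against 40.3 to 116 CPM in poor libraries. Hbegf, a ligand of the EGF receptor, was at 8.79 to 24.2 CPM in rich libraries, against 35.98 to 129 CPM in poor libraries, and Wif1, a secreted Wnt inhibitor, was at 0.426 to 4.99 against 5.98 to 30.05 CPM. The other 6, Olfr1033, Gal3st3, Slc16a4, Chst3, Ppp1r36 and Slc25a43, had log2 fold changes of -2.58 to -1.99. Olfr1033, annotated as an olfactory receptor, was the most abundant of the 10, at 23.6 to 192 CPM in rich libraries, against 212 to 795 CPM in poor libraries. Of these 10 genes only Dsp, at -1.49, was past the threshold without D+1 IR 1, 2 and 3. The other 9 had log2 fold changes of -2.33 to -1.36 there, such as -1.84 for Slc25a43, -1.94 for Olfr1033 and -1.67 for Hbegf. With the irradiation group as a covariate these 3 were past the threshold as lower. Dsp was not past it with this covariate, at -2.03 (standard error 0.56).

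Other cells of the sample were as follows. Over all genes tested, 13.3% were past the threshold as higher, 11.8% as lower, and 37.6% had a log2 fold change above 0. The counts past the threshold of the general endothelial, elastic fiber and matrix lists below were near these shares. Of 9 genes of fat capillary endothelium, 4 were past the threshold as higher, among them Gpihbp1, which carries lipoprotein lipase across the vessel wall, at 45.5 to 130.5 CPM in rich libraries, against 14.1 to 91.5 CPM in poor libraries, and 0 were without D+1 IR 1, 2 and 3. With the irradiation group as a covariate 3 were, Gpihbp1, Btnl9 and Rbp7, and the log2 fold change of Btnl9 was 1.27 without D+1 IR 1, 2 and 3, against 1.24 with them. Of 14 general endothelial genes 2 were higher, and of 20 macrophage genes 0 were higher and 1, Mertk, lower. Of 17 elastic fiber genes 16 had a log2 fold change below 0 and 2 were past the threshold as lower, with a median of -0.94. Of 21 genes of fibrillar collagens and matrix 19 were below 0 and 3 past the threshold, Postn, Fn1 and Tnc, with a median of -1.01. The 14 proliferation genes and the 10 erythroid genes tested were all below 0, with 0 past the threshold and medians of -1.23 and -1.15. All these single calls were lost without D+1 IR 1, 2 and 3. The 16 lymphocyte genes and the 14 genes of sympathetic neurons and adrenal medulla had 0 past the threshold in either direction. The summed level of the neuron list was 15.1 to 3239 CPM in rich libraries, against 22.1 to 8745 CPM in poor libraries. That of the skeletal muscle list was 39.7 to 1174 CPM in rich libraries, with the highest in D+1 IR 3, against 74.7 to 11479 CPM in poor libraries, with the highest in D-3 IR 10. Its median log2 fold change was -2.73 with D-3 IR 10 and 1.22 without it. The part of these cells in the results above was not tested.

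The 7 middle libraries, which entered neither set, served to test whether other genes went with Ucp1. There Ucp1 spanned 619 to 2006 CPM, a range of 1.70 on the log2 scale, and the slope of each gene on log2 Ucp1 was tested with edgeR over 16877 genes. No gene passed an adjusted p of 0.05 in either direction (0%). At an unadjusted p under 0.05, 827 genes (4.9%) had a positive and 353 (2.09%) a negative slope, and DESeq2 called 58 and 32 genes at an adjusted p under 0.05.

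Of the brown adipocyte list, 29 of 32 genes had a slope above 0, against 46.3% of all genes, and 21 had an unadjusted p under 0.05 with a positive slope, 0 with a negative one. The median slope was 0.86 (log2 units of the gene per log2 unit of Ucp1), against -0.02 over all genes tested. Adrb3 had the smallest p of the list, with a slope of 1.19 and an adjusted p of 0.306 by edgeR. Elovl3, at 10.9 to 105 CPM in these libraries, had a slope of 1.30 (standard error 0.32, adjusted p = 0.402 by edgeR). Cidea had a slope of 1.00, Otop1 1.13 and Kcnk3 1.14, while Cyp2b10 had 0.55 (unadjusted p = 0.703 by edgeR), Dio2 0.58 and Prdm16 -0.31. DESeq2 called 6 genes of the list. Without D-3 IR 11, which had 14112 CPM of Acta2, edgeR called 4 genes of the list, Cidea, Kcnk3, Adrb3 and Otop1.

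The fuel lists had slopes of the same sign as their differences between the sets. For fatty acid oxidation 29 of 29 slopes were above 0, with 23 at an unadjusted p under 0.05, for the TCA cycle 29 of 30, with 26, and for the nuclear respiratory chain 79 of 79, with 40. The median slopes were 0.76, 0.68 and 0.48. For general adipocyte genes 26 of 27 were above 0, with 21 at an unadjusted p under 0.05, and for white adipocyte genes 8 of 14, with 2. Contractile genes of smooth muscle had 5 of 24 slopes above 0, against 46.3% of all genes. Of the 24, 0 had an unadjusted p under 0.05, where 2.09% of all genes had one with a negative slope. The median of these 24 slopes was -0.11, and 0.39 without D-3 IR 11. The same 7 libraries held D-3 IR 15 and control 5, the highest in skeletal muscle transcripts, at the upper end of Ucp1, and 15 of 16 skeletal muscle genes had a positive slope at an unadjusted p under 0.05, with a median of 4.10. Without D-3 IR 15 the count of positive slopes at an unadjusted p under 0.05 over all genes was 490, and without control 9 it was 266. The median slope of the brown adipocyte list was then 0.69 and 0.73.

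Of the 10 genes with the smallest p, 6 were muscle genes (Myot, Art1, Trdn, Cox6a2, Myh4 and Acta1) and 4 were not. Besides Adrb3 these were Aspg, an asparaginase, Paqr9, a membrane receptor of the progestin and adipoQ receptor family, and Marc1, a mitochondrial reductase. Aspg had a slope of 1.14 (adjusted p = 0.281 by edgeR) and, in the sets, 86.3 to 174 CPM in rich libraries, against 3.26 to 29.3 CPM in poor libraries. Paqr9 had a slope of 1.07 and 81.5 to 155 CPM in rich libraries, against 3.32 to 43.3 CPM in poor libraries. Marc1 had a slope of 1.39 and 11.3 to 31.5 CPM in rich libraries, against 0.298 to 4.97 CPM in poor libraries. These 3 genes did not overlap between the sets.

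**Figure D5:**
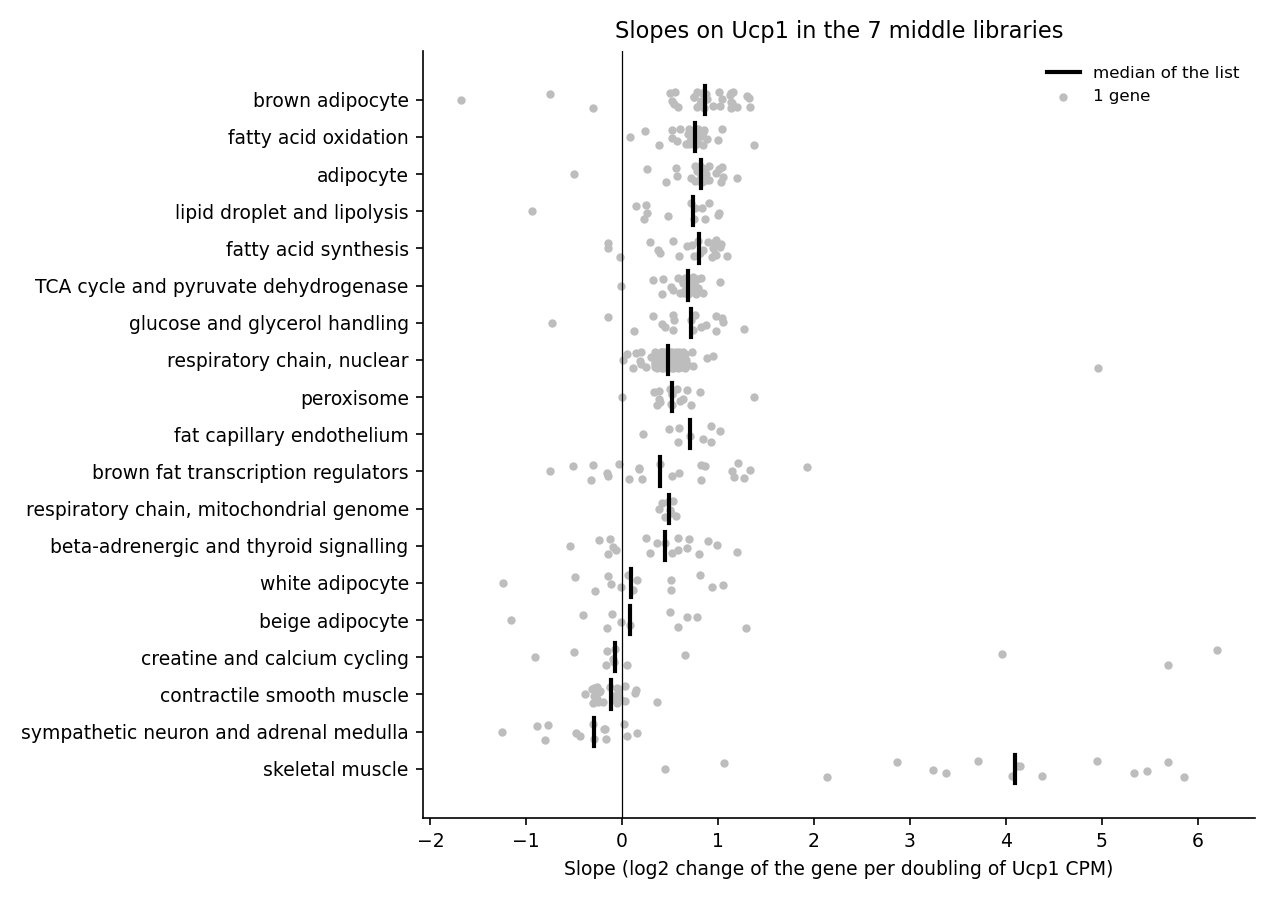
Each grey point is 1 gene of a list at its slope on Ucp1 in the 7 middle libraries (log2 units of the gene per log2 unit of Ucp1), and the black bar is the median of the list. The brown adipocyte list has a median of 0.86, contractile smooth muscle -0.11 and skeletal muscle 4.10.

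Between the irradiation groups, Ucp1 overlapped. Its lowest, median and highest levels were 158, 751 and 2172 CPM in D-3 IR libraries, 351, 3035 and 3906 CPM in D+1 IR libraries and 98.1, 619 and 2267 CPM in control libraries. The log2 fold change of D-3 IR over control was 0.01 (standard error 0.76, adjusted p = 1 by edgeR), that of D+1 IR over control was 1.13 (standard error 0.78, adjusted p = 0.665 by edgeR), and that of D-3 IR over D+1 IR was -1.12 (standard error 0.70, adjusted p = 0.510 by edgeR). Leaving out D+1 IR 1, 2 and 3 made the last 2 values 0.59 (standard error 0.92) and -0.58 (standard error 0.85). Of 17617 genes, edgeR called 0 (0%) in each comparison. At an unadjusted p under 0.05 there were 232 genes (1.32%) for D-3 IR over control, 1253 (7.11%) for D+1 IR over control and 2018 (11.5%) for D-3 IR over D+1 IR, and DESeq2 called 0, 0 and 43 genes in these comparisons. The brown adipocyte list had median log2 fold changes of 0.12, 0.95 and -0.93 in the same order. The comparisons share libraries with each other and with the sets.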

How the data were processed

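RNA was extracted from abdominal aortas, selected by poly(A), made into libraries with a stranded kit and sequenced, 1 library a mouse. Per the labels and the study's methods, FastQC was used for read quality and STAR 2.7.9a for alignment to GRCm38. The authors deposited the raw counts per gene that STAR gives, unstranded and for each strand. The unstranded counts were used. The second-strand share was 49.9% to 50.1%, so the counts hold no strand. All 748505 values of the deposited joined table that could be compared were equal to these counts. Names came from GENCODE M21 for 52081 of 55414 gene IDs, promoters from RefSeq (GRCm38.p6). No 2 libraries of a group were copies.

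CPM in the text are plain counts over all counts in genes. Low counts were removed by edgeR's default rule, and edgeR 4.0.16 (R 4.3.3) fitted the rest with TMM scaling, two-sided quasi-likelihood F-tests and Benjamini-Hochberg adjustment over all genes at 0.05, without covariates. DESeq2 1.42.0 was an alternative. The other alternatives were library sizes alone, other filters, second-strand counts, no mitochondrial genes, the irradiation group as a covariate, other sizes of the sets, all 19 libraries in the fit, and fits without D+1 IR 1, 2 and 3 or each library in turn. At 25839001 to 97083681 counts a library the spread between mice (biological coefficient of variation 0.532 between the sets) limited the precision more than counting. The fits were tested on simulated data. The labels say nothing more on how the mice were kept apart, so p-values measure only the spread between these samples.

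The genes named are 10 brown fat genes, the 15 highest and 10 lowest of the non-overlapping genes past the threshold with a mean of at least 1 CPM, up to 4 of the largest changes of each list and the 10 smallest p of the slope. Some are left out. Cpt1a, Prkar1a, Atp5g2, Atp5g3, Slc2a1 and other examples outside this rule were picked with their values in view. The sets, the members and the 32 gene lists were chosen with earlier results of these data known. Some genes, such as Pparg, Gpd1, Pnpla2, Plin5 and Car4, are in more than 1 list, so the list counts are not independent of each other.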

Additional observations from a re-analysis of the deposited data

Results flagged for a closer look

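In all, 54 combinations of a gene, or of the mitochondrial share, with a set or irradiation group were tested. Of these, 12 held a library far from the others by Dixon's test at 95%. Chance gives this in about 1 of 20 for normally distributed values. The CPM were tested without a log, so this rate need not hold for them. Elovl3 was at 38.9 CPM in D-3 IR 13 of the poor set, against 10.3 in the next library. Cyp2b10 was at 18.2 CPM in D+1 IR 18 of the middle set, against 1.69. Cidea was at 654 CPM in D-3 IR 12 of the rich set, below the next at 1243. Cox7a1 was at 10.4 CPM and Kcnk3 at 34.5 CPM in control 6 of the poor set, below the next at 38.2 and 87.7. Ppargc1a was at 104 CPM in D+1 IR 19 of the rich set, against 36.4 in the next library. Prdm16 was at 89.9 CPM in D-3 IR 11 of the middle set, against 41.5.

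Lep was at 7.13 CPM in D+1 IR 18 of the middle set, against 3.55, and at 11.9 CPM in D-3 IR 13 of the poor set, against 2.68, so that the library with the most Elovl3 among the poor also had the most Lep. Acta1 stood apart in each set, at 246 CPM in D+1 IR 3 of the rich set, 948 CPM in D-3 IR 15 of the middle and 1854 CPM in D-3 IR 10 of the poor set, against 41, 217 and 51.0 in the next libraries.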

How the results depend on the processing

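The number of genes higher in the rich set was 908 with the irradiation group as a covariate and 877 without D+1 IR 1, 2 and 3, and 894 and 875 of these were among the 2190. The number lower was 233 and 59 under these settings, 812 without a filter on low counts and 406 for the 4 highest against the 4 lowest libraries. With each library left out in turn, 1757 to 2499 genes were higher and 885 to 2484 lower. The cause was not tested, though fewer libraries or a covariate leave fewer degrees of freedom. The brown adipocyte list had 27 to 29 higher genes when a library was left out. For the 4 highest against the 4 lowest libraries the log2 fold change was 4.88 for Elovl3, 6.30 for Cyp2b10, 4.65 for Dnajc22, 4.66 for Slc27a2, 4.79 for Gm47595 and 4.96 for Gm47593, and on second-strand counts it was 3.83 for Gm15241, against 4.70. In the middle libraries DESeq2 called 58 positive and 32 negative slopes, and with a library left out edgeR called 0 to 22 positive and 0 to 131 negative, all of them without D-3 IR 11. DESeq2 called 43 genes in D-3 IR against D+1 IR. The log2 fold change of Ucp1 in D-3 IR against control was -0.0162 with DESeq2 and -0.28 to 0.53 with a library left out, on both sides of 0. No paired analysis was possible because the groups share no replicate number and no mouse has 2 libraries. With 7 middle libraries and a range of 1.70 in log2 Ucp1, slopes had standard errors such as 0.32 for Elovl3.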
